A study of Mus musculus with 24 samples.

Results

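The genes described here encode the subunits of the oxidative phosphorylation system. They were chosen by symbol among the protein-coding genes: names beginning with Nduf, Sdha to Sdhd, Uqcr, Cox4 to Cox8 with a suffix, Atp5, and the mitochondrial mt-Nd, mt-Co, mt-Atp and mt-Cytb. The rule found 107 rows of the 55401 in the gene table, of which 21897 were protein-coding. They fell into 86 nuclear subunit genes, 13 mitochondrially encoded genes and 8 complex I assembly factors named Ndufaf, which match the rule without being subunits. Among the nuclear subunits, 36 belonged to complex I, 4 to complex II, 8 to complex III, 20 to complex IV and 18 to complex V. Ndufa4 and Ndufa4l2 were counted with complex IV, where the Ndufa4 protein is now placed. Cyc1, Usmg5 and Atpif1, which also act in these complexes, have names outside the rule.

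Gastrocnemius, a calf muscle, was taken from male C57BL6 mice 24 h after a scald burn or a sham procedure. Each of 4 groups (adult sham, adult burn, young sham, young burn) held 3 mice, with 1 mRNA library per mouse. Young mice were injured at 5 weeks of age and adult mice at 11 weeks. The burn covered 25% of the body surface. All mice, sham mice included, were shaved, anaesthetised with isoflurane and given buprenorphine for pain, whereas resuscitation fluid went only to burned mice, so its effect and that of the burn cannot be told apart. All comparisons below used 11 libraries in one model, without young burn replicate 2, since the study left out 1 young burn animal and showed young burn 1 and 3. Young burn values are therefore means of 2 libraries, and the left-out library is given beside the values it bears on. Total counts ran from 4392605 to 5688512 per library. Young burn replicate 2 stood apart from the other libraries of its group, with a chi-square per degree of freedom of 25.9 and 34.7 against them, where all other pairs within a group lay between 3.26 and 11.9. Markers of fast skeletal muscle summed to 116276 to 241914 CPM (normalised counts, each library scaled to the same total) in every library, whereas markers of heart muscle summed to at most 10.5 CPM in the 11 libraries.

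Oxidative phosphorylation turns the energy of nutrients into ATP at the inner mitochondrial membrane. Complexes I and II pass electrons from NADH and succinate to coenzyme Q, complex III passes them on to cytochrome c, and complex IV hands them to oxygen. Complexes I, III and IV pump protons, and complex V, the ATP synthase, lets them flow back to make ATP. Complex II is built from nuclear genes alone, whereas the other complexes mix nuclear subunits with the products of the 13 protein genes of mitochondrial DNA, so that 2 genomes have to be expressed side by side. Skeletal muscle relies on this system for sustained work, and slow and oxidative fibres hold more mitochondria than fast glycolytic ones.

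Of the 107 rows, 101 passed the filter on low counts and were tested: 82 nuclear subunits, 11 mitochondrially encoded genes and the 8 assembly factors. Cox7b2, Cox8c and a second Atp5o row had no count in any library. Cox6b2, whose product is the testis form of a complex IV subunit, had 63 counts over the 12 libraries. The mitochondrial genes mt-Nd4l and mt-Atp8 had 20 and 18 counts, although every mitochondrion carries them.

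The 13 mitochondrial genes differed in counts by several orders of magnitude, and the difference followed a nuclear copy of mitochondrial DNA. Bases 6394 to 11042 of the mouse mitochondrial genome, a stretch of 4649 bases, occur in reverse on chromosome 1, at 24611535 to 24616184 of GRCm38, a stretch of 4650 bases, with 1 differing base and 1 extra base. A read that fits both places is not counted for either gene when only uniquely placed reads are counted. For each gene, the share of its 75-base windows, the length of a read end, that also occur elsewhere in the genome was computed. All windows of mt-Co2, mt-Co3, mt-Atp6, mt-Atp8 and mt-Nd4l lay in the copy, as did 98.9% of those of mt-Nd3. Over the 12 libraries these genes had 1007, 1324, 817, 18, 20 and 156 counts. Genes with few or no shared windows had far more. The values were 1171729 counts for mt-Cytb, 1112867 for mt-Nd1 and 153774 for mt-Nd6, each with 0% shared, 328320 for mt-Nd5 with 1.66% and 501851 for mt-Nd2 with 5.71%. The genes that straddle the ends of the copy were mt-Co1, with 39.8% of windows shared and 1515476 counts, and mt-Nd4, with 61.5% shared and 546689 counts. Levels of the mitochondrial genes can therefore not be compared with each other, and the summed mitochondrial count rests on 7 genes: mt-Co1, mt-Cytb, mt-Nd1, mt-Nd2, mt-Nd4, mt-Nd5 and mt-Nd6. Changes of one gene between groups are not affected by a share that is the same in every library. The STAR gene counting option that the study states counts only uniquely placed reads.

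**Figure D1:**
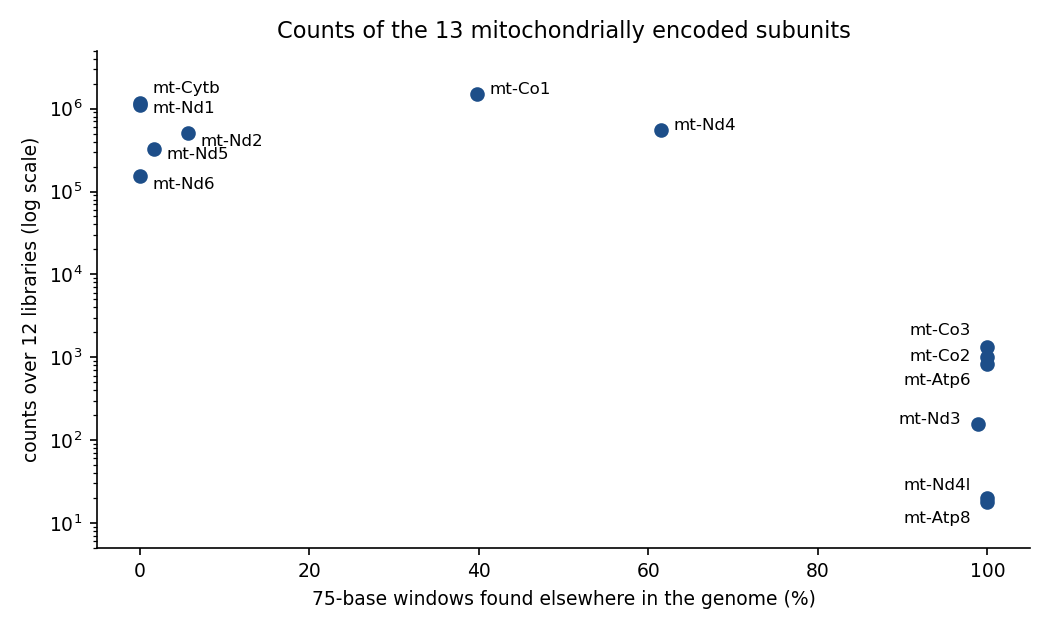
Counts of the 13 mitochondrially encoded genes summed over 12 libraries (vertical axis, log scale) against the percent of their 75-base windows found elsewhere in the genome (horizontal axis). Each point is 1 gene. The 6 genes with nearly all windows shared lie between 18 and 1324 counts, and the other 7 lie between 153774 and 1515476.

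The following 75-base stretches, from the RefSeq mouse genome (GRCm38.p6, plus strand), show what was and was not countable. Capitals mark bases that also occur, letter for letter, in the chromosome 1 copy. The first crosses the edge of the copy inside mt-Co1 (chrM:6364-6438), and the fourth crosses its other edge inside mt-Nd4 (chrM:10998-11072). Those from mt-Co2 (chrM:7113-7187) and mt-Co3 (chrM:8707-8781) lie wholly within it. The stretch of mt-Cytb (chrM:14245-14319) lies outside.
mt-Co1: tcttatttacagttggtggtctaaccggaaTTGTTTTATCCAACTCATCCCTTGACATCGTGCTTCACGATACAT
mt-Co2: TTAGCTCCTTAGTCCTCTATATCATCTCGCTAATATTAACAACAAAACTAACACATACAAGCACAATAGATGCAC
mt-Co3: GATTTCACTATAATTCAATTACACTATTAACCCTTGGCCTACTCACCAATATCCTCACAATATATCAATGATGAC
mt-Nd4: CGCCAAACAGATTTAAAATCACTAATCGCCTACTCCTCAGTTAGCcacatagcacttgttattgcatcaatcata
mt-Cytb: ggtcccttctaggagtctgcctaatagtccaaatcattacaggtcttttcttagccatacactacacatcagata

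Some nuclear members also share sequence with copies elsewhere. The largest share was that of Atp5l, with 80.4% of windows found at another place, followed by Cox7a2l (44.6%), Ndufs5 (43.6%), Uqcrb (43.0%) and Atp5h (41.3%). Counts of these genes are uncertain in level.

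Mitochondrially encoded genes took a larger share of the counts than all nuclear subunits together in every library. In adult sham mice the mitochondrial share was 9.59%, 10.5% and 9.32% of all counts, and in adult burn mice it was 7.62%, 6.80% and 8.78%, so that every adult burn library lay below every adult sham library. In young sham mice it was 8.76%, 9.39% and 12.8%, with replicate 3 far above the others. In young burn mice it was 8.97% and 8.51%, overlapping with the young sham values, and 6.06% in the left-out library. The nuclear share moved within a narrower range. It was 3.38%, 3.31% and 3.27% in adult sham, 3.23%, 2.83% and 3.10% in adult burn, 3.17%, 3.45% and 3.20% in young sham, and 3.53% and 3.34% in young burn mice, with 2.64% in the left-out library. The adult sham and adult burn nuclear shares did not overlap either, but differed less. The ratio of mitochondrial to nuclear counts was 2.96 ± 0.188 (SD, n = 3) in adult sham, 2.53 ± 0.262 (n = 3) in adult burn, 3.17 ± 0.730 (n = 3) in young sham and 2.55 ± 0.00425 (n = 2) in young burn mice. The wide spread of young sham came from replicate 3, at 4.01 against 2.77 and 2.73. In bulk muscle, fewer oxidative fibres and less RNA per fibre cannot be told apart. Shares of counts also depend on what else was in the library, and the normalised levels below are scaled for this.

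**Figure D2:**
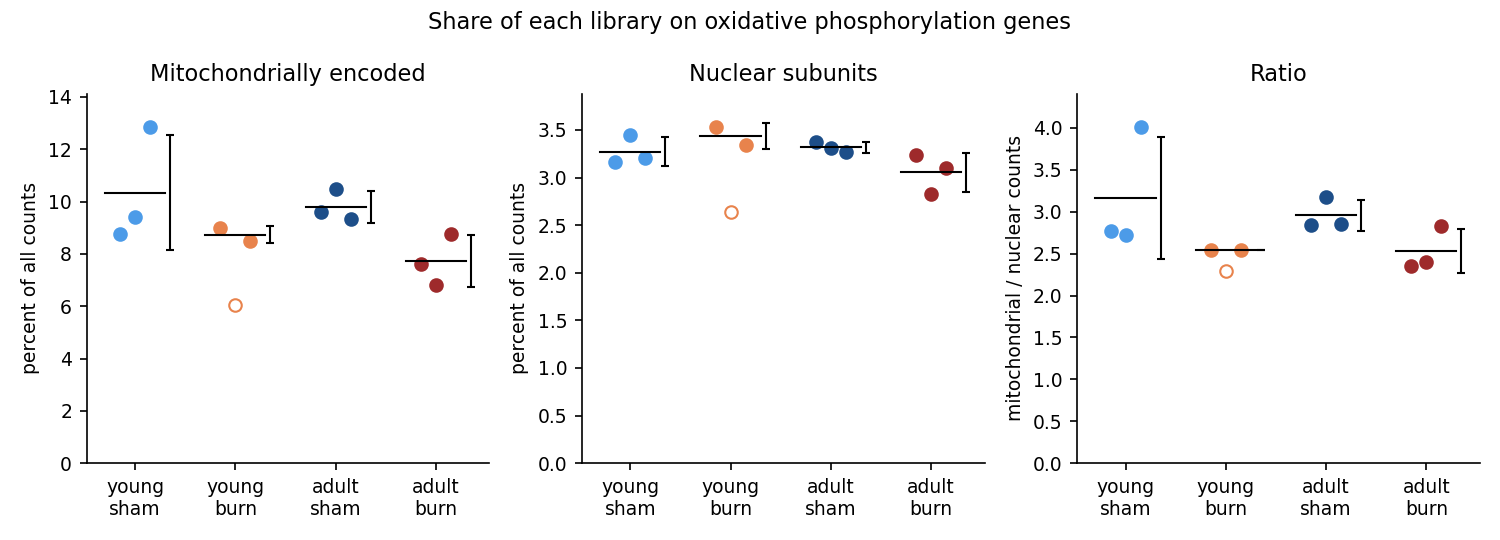
Percent of all counts on mitochondrially encoded genes (left), on nuclear subunits (middle) and their ratio (right) in each library, by group. Filled points are the 11 libraries compared, the open circle is young burn replicate 2, lines are means and bars SDs of the filled points. The adult burn libraries lie at 6.80% to 8.78% mitochondrial, below the adult sham libraries at 9.32% to 10.5%, and young sham replicate 3 stands at 12.8%.

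By level per length, the most abundant nuclear members belonged to complex IV. Cox8b, the muscle form of a small complex IV subunit, stood at 1896 CPM per kilobase of exon over the 11 libraries, and Cox6a2, another muscle form, at 1298. The leading genes of the other complexes were Uqcr10 (706 CPM per kilobase) in complex III, Atp5e (581) in complex V, Ndufb11 (553) in complex I and Sdhd (196) in complex II. All 4 groups had the same order of summed levels by complex, with complex V first, then I, IV, III and II. In adult sham mice, nuclear complex V summed to 10604 ± 40.7 CPM (SD, n = 3), complex I to 9144 ± 80.9, complex IV to 7459 ± 114, complex III to 3520.0 ± 48.9 and complex II to 1599 ± 14.4. In adult burn mice the same sums were 9650.0 ± 501, 8683 ± 617, 6934 ± 573, 3328 ± 231 and 1404 ± 89.8 CPM, each lower in mean and each with a wider spread.

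The first comparison asked how young and adult uninjured muscle differ. Most members were higher in young sham than in adult sham mice, by small amounts: 77 of 101 had a positive log2 fold change and 24 a negative one. Of these, 6 passed the test as higher and 1 as lower (edgeR quasi-likelihood test, adjusted p under 0.05 over all genes). Across all 12651 genes, 11.8% were called, 5.27% higher and 6.50% lower, so that 7 calls among 101 members were no larger a share. The smaller differences were more one-sided. At an unadjusted p under 0.05, 31 of 101 members were higher, where 13.4% of all genes were. At that threshold 2 members were lower, where 1825 of 12651 genes were. The median log2 fold change was 0.17 for nuclear subunits and 0.24 for mitochondrially encoded genes, where that of all genes was 0.00087. By complex, the nuclear medians were 0.19 for I, -0.15 for II, 0.21 for III, 0.19 for IV and 0.11 for V. Complex II thus lay on the other side of zero from the rest, with 3 of its 4 genes lower in level in young sham mice and none called. Within complex I, the 7 nuclear core subunits, which hold the flavin and the iron-sulfur clusters, had a median of -0.06, and the 29 accessory subunits one of 0.22. This split was drawn after the values had been seen.

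The called complex V genes were Atp5o and Atp5e. Atp5o, part of the stalk that holds the ATP synthase head in place (chr16:91925214-91931687), was at 131, 135 and 203 CPM in young sham mice and at 117, 105 and 98.5 CPM in adult sham mice. The groups did not overlap, and young sham replicate 3 was the highest. The log2 fold change was 0.55 ± 0.16 (SE, edgeR adjusted p = 0.0351). Atp5e, a subunit of the rotating central stalk, was at 1099.5, 1277 and 1366 against 985, 944 and 879 CPM, a log2 fold change of 0.42 ± 0.12 (edgeR adjusted p = 0.0305).

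In complex I, the small membrane-arm subunits Ndufa1 and Ndufc1 were called higher in young sham mice. Ndufa1 stood at 205, 222 and 247 CPM in young sham and 183, 171 and 151 CPM in adult sham mice (log2 fold change 0.42 ± 0.11, edgeR adjusted p = 0.0227). Ndufc1 stood at 353, 399 and 531 against 318, 321 and 310.0 CPM (0.43 ± 0.12, edgeR adjusted p = 0.0344). Neither gene's groups overlapped. The assembly factor Ndufaf5, which modifies a complex I subunit during assembly, was at 80.3, 86.1 and 94.0 against 57.6, 60.0 and 64.4 CPM, every young sham library being above every adult sham library (0.52 ± 0.13, edgeR adjusted p = 0.0160).

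Ndufa4l2, a paralogue of Ndufa4 known to be induced by low oxygen (chr10:127514967-127517154), was at 19.1, 20.3 and 19.5 CPM in young sham and 12.05, 15.8 and 13.5 CPM in adult sham mice. The log2 fold change was 0.51 ± 0.13 (edgeR adjusted p = 0.0222). It was the only member called between the ages both in sham and in burned mice (below). The one member called lower in young sham mice was Uqcrc2, a core protein of complex III (chr7:120635176-120659524), at 195.6, 159 and 155 CPM against 220.2, 242 and 243 CPM. Its log2 fold change was -0.47 ± 0.10 (edgeR adjusted p = 0.0106).

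Among the mitochondrially encoded genes, all 11 tested had positive fold changes in young sham mice, from 0.06 to 0.42, and none was called. This rested on young sham replicate 3. The level of mt-Nd4 was 10409.9, 10362 and 16778 CPM in young sham mice and 9043, 10039.7 and 8994 CPM in adult sham mice, with young sham replicates 1 and 2 close above the highest adult sham library (0.42 ± 0.17, edgeR adjusted p = 0.121). The level of mt-Co1 was 24604, 24782 and 39140.3 against 26086, 29220.3 and 27722 CPM, so that 2 young sham libraries were below and 1 was above all adult sham libraries. Without young sham replicate 3 the mitochondrial median was -0.05 and the nuclear one 0.09, and no member was called. Leaving out young sham replicate 1 gave 19 calls, and leaving out adult sham replicate 1, 2 or 3 left 2 each, with Uqcrc2 among them every time. Calls among all genes, 1489 with the 11 libraries, then numbered 564 and 1772 in the fits lacking young sham replicate 3 and replicate 1, and 878, 687 and 1160 in those lacking adult sham replicate 1, 2 and 3. With all 12 libraries, which called 3.76% of genes, Uqcrc2 was the single member called. On library size alone, without the further scaling, the median of all genes moved to -0.13, and that of nuclear subunits to 0.03. The difference between those medians was 0.16 under both scalings.

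Exon length, counted as all bases that are exon in any annotated transcript of a gene, moved with this comparison. Subunit genes with up to 999 bases of exon had a median log2 fold change of 0.19 (21 genes), those with 1000 to 1999 bases one of 0.23 (31 genes) and those with 2000 or more one of -0.03 (30 genes). For other protein-coding genes of these lengths the medians were 0.08, 0.05 and -0.02. In the RNA quality report of the study, no sample had an integrity number. The ratio of large to small ribosomal RNA was in each young sham sample no higher than in any adult sham sample. The part of length or RNA quality in the result was not tested.

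Cell type markers moved with this comparison too. Of the 11 skeletal muscle markers tested, 3 were called higher in young sham mice (Mylpf, Myl1 and Pvalb) and 1 lower (Myh1), with sums of 172030 to 241914 CPM against 135697 to 152169 CPM, without overlap. One more marker of that list, Tnnc2, was not tested, at 0 to 1.33 CPM over the 12 libraries. Of 7 fibroblast and tendon markers 3 were higher (3644 to 4514 against 796 to 1508 CPM), and of 5 Schwann cell markers 3 were (179.9 to 322 against 141 to 160.4 CPM). The endothelial marker Egfl7 and the adipocyte marker Fabp4 were called higher, and of the 11 slow and oxidative fibre markers Casq2 was higher and Mb lower. With all 12 libraries Mylpf, Myl1, Pvalb and the fibroblast markers Col1a1 and Col3a1 were also called. Myh1, the tendon marker Tnmd, Egfl7, Fabp4, Casq2, Mb and the Schwann cell markers were not (edgeR adjusted p from 0.0809 to 0.183). The part of these markers in the member levels was not tested.

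**Figure D3:**
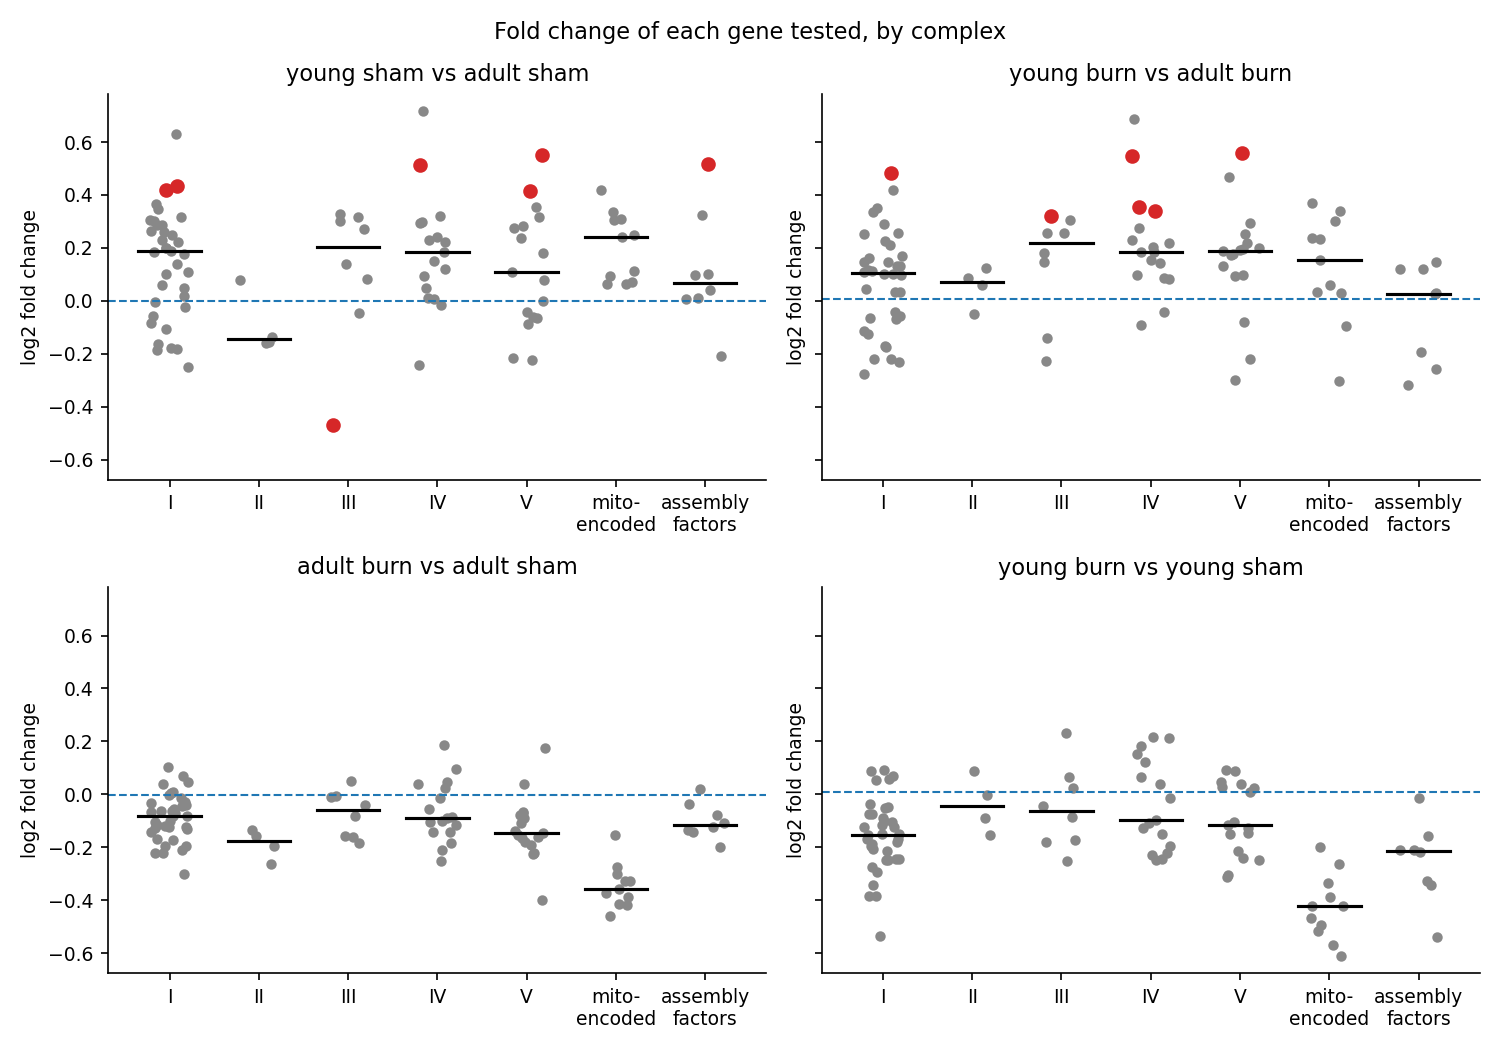
Log2 fold change of each gene tested (points, red where called) by complex, in 4 comparisons, with nuclear genes in columns I to V, and the mitochondrially encoded genes and assembly factors apart. Black lines are medians of each class and the dashed line is the median of all 12651 genes. The mitochondrially encoded genes lie below the dashed line in both burn comparisons, at medians of -0.36 in adult and -0.42 in young mice, with no red point.

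The second comparison asked what the burn changed in adult muscle. Members were lower in level in adult burn than in adult sham mice in 86 of 101 cases, with no member called in either direction. Over all genes, 0.909% were called. At an unadjusted p under 0.05, 6 members were lower and 0 higher, where 6.78% of all genes were lower and 873 of 12651 higher. The members' share that was lower past that unadjusted threshold was thus near that of genes at large. DESeq2 called 0 members and 2.35% of genes. The fold changes were small and mostly of one sign. The median log2 fold change was -0.10 for nuclear subunits and -0.36 for the mitochondrially encoded genes, where it was -0.0039 for all genes. By complex, the nuclear medians were -0.08 for I, -0.18 for II, -0.06 for III, -0.09 for IV and -0.14 for V. The 8 assembly factors had a median of -0.11. The groups did not overlap for 29 of 101 members, all of them lower in adult burn mice, where 9.94% of all genes were lower without overlap. Subunit genes of up to 999, 1000 to 1999 and 2000 or more exon bases had medians of -0.06, -0.08 and -0.14. Those of other protein-coding genes were 0.04, 0.05 and -0.003. The ratio of large to small ribosomal RNA was in each adult burn sample no higher than in any adult sham sample. The part of length or RNA quality was not tested.

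All 11 mitochondrially encoded genes tested were lower in level in adult burn mice, with log2 fold changes from -0.46 to -0.15. For mt-Nd4, a proton-pumping subunit of complex I, the adult sham libraries stood at 9043, 10039.7 and 8994 CPM and the adult burn libraries at 6496, 6405 and 8143 CPM (-0.42 ± 0.17, edgeR adjusted p = 0.282). For mt-Cytb, the cytochrome b of complex III, they stood at 19644, 21684 and 19365 against 14990.2, 13647 and 18794 CPM (-0.36 ± 0.18, edgeR adjusted p = 0.410). For mt-Co1, the catalytic subunit of complex IV, they stood at 26086, 29220.3 and 27722 against 21752, 19782 and 24699 CPM (-0.33 ± 0.17, edgeR adjusted p = 0.410). In each of these genes the groups did not overlap, and adult burn replicate 3 was the library nearest to the sham mice. The complex I gene mt-Nd5, at 5826, 6856 and 5431 against 4589, 4946 and 6739.8 CPM, did overlap. The mitochondrial median was -0.21 without adult burn replicate 2 and -0.50 without adult burn replicate 3. Without the filter on low counts, mt-Co1, mt-Cytb, mt-Nd4 and mt-Nd6 were called lower, where calls among all genes went from 115 to 562.

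The nuclear members below an unadjusted p of 0.05 had different roles. Ndufs1, the largest iron-sulfur subunit of complex I, was at 261, 284 and 284 CPM in adult sham and 233, 221 and 218 CPM in adult burn mice (-0.30 ± 0.09, edgeR adjusted p = 0.158). Sdhb, the iron-sulfur subunit of complex II, was at 440.1, 454 and 434 against 405, 355 and 347 CPM (-0.26 ± 0.10, edgeR adjusted p = 0.237). Cox7a2, the ubiquitous form of a complex IV subunit, was at 319, 318 and 306 against 269, 246 and 277 CPM (-0.25 ± 0.10, edgeR adjusted p = 0.267). Atp5g3, which encodes the c subunit of the ATP synthase ring, was at 880.2, 840.4 and 804 against 779, 659 and 729 CPM (-0.22 ± 0.10, edgeR adjusted p = 0.362). None of the 4 overlapped between the groups. Ndufs1, named by its p after the values were seen, had the smallest adjusted p of these.

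Markers of slow and oxidative fibres moved with this comparison. The 11 markers summed to 2449 to 3906 CPM in adult sham and 1362 to 1833 CPM in adult burn mice, and none was at 0. All 11 had negative log2 fold changes, and 4 were called lower (Myh2, Myl2, Myl3 and Casq2). For Myh7, Tnni1, Tnnc1, Tnnt1 and Atp2a2, however, adult sham replicate 1 lay below every adult burn library, as with Myh7 at 17.8 against 29.6 to 33.1 CPM. Of the 11 skeletal muscle markers tested, 0 were called higher and 1 lower (Myh1, -1.14, edgeR adjusted p = 0.00177). The part of these markers in the lower oxidative phosphorylation levels was not tested. Among the regulators of mitochondrial genes, 2 of 20 tested were called lower, and 0 higher. Esrrg, a nuclear receptor that drives oxidative genes, was at 18.0, 16.7 and 29.6 CPM in adult sham and 8.76, 8.47 and 7.29 CPM in adult burn mice (-1.39, edgeR adjusted p = 0.0179). Perm1, a muscle factor that acts with such receptors, was at 102, 97.5 and 115 against 72.7, 45.3 and 65.5 CPM (-0.78, edgeR adjusted p = 0.0257). Ckmt2, the mitochondrial creatine kinase of muscle, was called lower among the carriers and exchangers of ATP (-0.51, edgeR adjusted p = 0.0495). Neither the 14 citric acid cycle genes nor the 50 assembly factors tested held a call. With all 12 libraries in the fit, 0.00806% of genes were called, and none of these marker, regulator or carrier genes was.

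The third comparison asked the same of young mice. No member was called between young burn and young sham mice, where 0.664% of all genes were. Of the 101 members, 78 had negative log2 fold changes. At an unadjusted p under 0.05, 14 were lower and 0 higher, where 6.80% of all genes were lower and 1167 of 12651 higher. The median was -0.12 for nuclear subunits, -0.42 for mitochondrially encoded genes and -0.21 for assembly factors, where it was 0.0095 for all genes. By complex, the nuclear medians were -0.15 for I, -0.05 for II, -0.06 for III, -0.10 for IV and -0.12 for V. The groups did not overlap for 34 of 101 members, near the 32.4% of all genes without overlap in either direction. Of the 34, 29 were lower in young burn mice, where 14.9% of all genes were lower without overlap. The 5 without overlap that were higher in level were Uqcrc2, Ndufa4l2, Cox8a, Ndufb8 and Ndufa9. DESeq2, which called 2.13% of genes, called 2 members lower: Ndufa3 and Ndufaf5. The nuclear median depended on the scaling. On library size alone it was 0.04, where the median of all genes was 0.16, so that it lay below that of all genes by 0.12, as against 0.13 with the scaling used here.

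The 14 members at an unadjusted p under 0.05 were mostly subunits or assembly factors of complex I. They included mt-Nd1, mt-Nd2, mt-Nd4 and mt-Nd5, and the nuclear accessory subunits Ndufb4, Ndufc1, Ndufa3, Ndufa12 and Ndufv3. Ndufaf5, Ndufaf6 and Ndufaf8 were the assembly factors. Complex I also made up much of the 101 members tested, with 36 nuclear subunits and 8 assembly factors besides the mt-Nd genes. The level of mt-Nd2 was 8781, 8749 and 14939 CPM in young sham and 7212 and 6979 CPM in young burn mice, with 4186 CPM in the left-out library (-0.61 ± 0.21, edgeR adjusted p = 0.173). That of mt-Nd1 was 19127, 21175 and 31911 against 18008 and 15627 CPM, with 8668 in the left-out library (-0.52 ± 0.20, edgeR adjusted p = 0.225). In both, young sham replicate 3 was the highest and the groups did not overlap. Without it, the mitochondrial median was -0.18 and the nuclear one -0.06.

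Among the nuclear genes, Ndufa3 had the tightest groups, at 327, 313 and 324 CPM in young sham and 243 and 249 CPM in young burn mice, with 181 in the left-out library (-0.38 ± 0.11, edgeR adjusted p = 0.114, DESeq2 adjusted p = 0.0335). Ndufb4 stood at 114, 150.1 and 159 against 102 and 92.9 CPM (-0.53 ± 0.16, edgeR adjusted p = 0.121), and 39.7% of its windows occur elsewhere in the genome. Ndufaf5 stood at 80.3, 86.1 and 94.0 against 64.0 and 55.2 CPM (-0.54 ± 0.14, edgeR adjusted p = 0.0868). One of these young burn libraries lay within the adult sham range of 57.6 to 64.4 CPM and the other below it, as did the left-out library at 42.0 CPM. Subunit genes of up to 999, 1000 to 1999 and 2000 or more exon bases had medians of -0.18, -0.12 and -0.02, beside -0.09, -0.02 and 0.02 for other protein-coding genes, and the part of length was not tested. With all 12 libraries, which called 0.0645% of genes, the medians were -0.31 for nuclear subunits and -0.68 for mitochondrially encoded genes, and no member was called.

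None of the 20 regulators tested was called, and Esrrg stood at 14.3, 13.2 and 8.31 CPM in young sham against 13.2 and 9.47 CPM in young burn mice. None of the 11 slow and oxidative fibre markers was called, with sums of 1672 to 2790 CPM in young sham and 2987 to 3231 CPM in young burn mice, and 1257 CPM in the left-out library. Of 8 macrophage markers, 4 were called higher, with sums of 203 to 271 CPM in young sham and 368 to 591 CPM in young burn mice and none at 0. Of these 4, only Lyve1 was also called with all 12 libraries (edgeR adjusted p = 0.0356). None of the 11 skeletal muscle markers tested was called, but 10 had negative log2 fold changes, with a median of -0.42. They summed to 172030 to 241914 CPM in young sham mice, highest in replicate 3, and to 144746 to 153506 CPM in young burn mice, without overlap, with 116276 CPM in the left-out library. The part of these markers in the member levels was not tested.

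The fourth comparison set young burn against adult burn mice. It shares its libraries with the burn comparisons above, so the values are not independent of those. Of 101 members, 6 were called higher in young burn mice and 0 lower, where 20.7% of all genes were called, 11.2% higher and 9.54% lower. The 6 calls among 101 members thus stood beside a larger share among all genes, a difference that was not tested. At an unadjusted p under 0.05, 15 members were higher, where 18.6% of all genes were, and 3 were lower, where 2139 of 12651 genes were. The median log2 fold change was 0.14 for nuclear subunits and 0.15 for mitochondrially encoded genes, where it was 0.0077 for all genes. By complex it was 0.11 for I, 0.07 for II, 0.22 for III, 0.19 for IV and 0.19 for V. With all 12 libraries, where 10.8% of genes were called, Ndufa4l2 was the only member called, and the medians turned to -0.03 and -0.20. The direction of the nuclear and mitochondrial medians in this comparison thus rested on leaving out young burn replicate 2. The mitochondrial median also turned, to -0.03, without adult burn replicate 2.

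Atp5g3 had the smallest adjusted p of the called members (chr2:73908447-73911326). The c subunit it encodes forms the ring that protons turn. Young burn libraries stood at 1132 and 996 CPM, adult burn libraries at 779, 659 and 729 CPM, and the left-out library at 597 CPM. The log2 fold change was 0.56 ± 0.11 (edgeR adjusted p = 0.00398), and 0.32 with all 12 libraries (edgeR adjusted p = 0.284). Between the sham groups the same gene was at 962, 1062 and 1116 against 880.2, 840.4 and 804 CPM (0.32 ± 0.10, edgeR adjusted p = 0.0589).

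Ndufa4l2 was the other called member with a difference above 0.5, at 22.9 and 22.8 CPM in young burn and 15.5, 15.2 and 16.2 CPM in adult burn mice. The left-out library, at 20.2 CPM, also lay above all adult burn libraries. The log2 fold change was 0.55 ± 0.14 (edgeR adjusted p = 0.0129), and 0.48 with all 12 libraries (edgeR adjusted p = 0.0373).

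Complex IV held 2 further calls. Cox6c, a small nuclear subunit, was at 1014 and 840.1 CPM against 722, 701 and 751 CPM (0.36 ± 0.11, edgeR adjusted p = 0.0372), with 555 CPM in the left-out library, below all adult burn values. Cox8a, the ubiquitous partner of Cox8b, was at 81.0 and 80.4 CPM against 64.5, 57.7 and 69.1 CPM, with 71.2 in the left-out library, above all adult burn values (0.34 ± 0.11, edgeR adjusted p = 0.0387). In complex I, Ndufab1, which is also the mitochondrial acyl carrier protein, was at 142 and 125 against 95.7, 79.7 and 111 CPM (0.48 ± 0.16, edgeR adjusted p = 0.0400). In complex III, Uqcrfs1, the Rieske iron-sulfur protein, was at 739 and 623 against 576, 529 and 529 CPM (0.32 ± 0.11, edgeR adjusted p = 0.0441). The left-out library was at 80.3 and 434 CPM for these genes, within and below the adult burn range.

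Leaving out 1 library at a time gave 1 to 9 calls. Atp5g3 was called in each of these fits except that without young burn replicate 1. The fits without either young burn library left a single one, assumed to vary like the other groups. That without young burn replicate 1 called only Cox6b2, which had not passed the filter in the 11 libraries. Without young sham replicate 3 there were 9 calls, among them mt-Nd4, Atp5h and Atp5o.

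**Figure D4:**
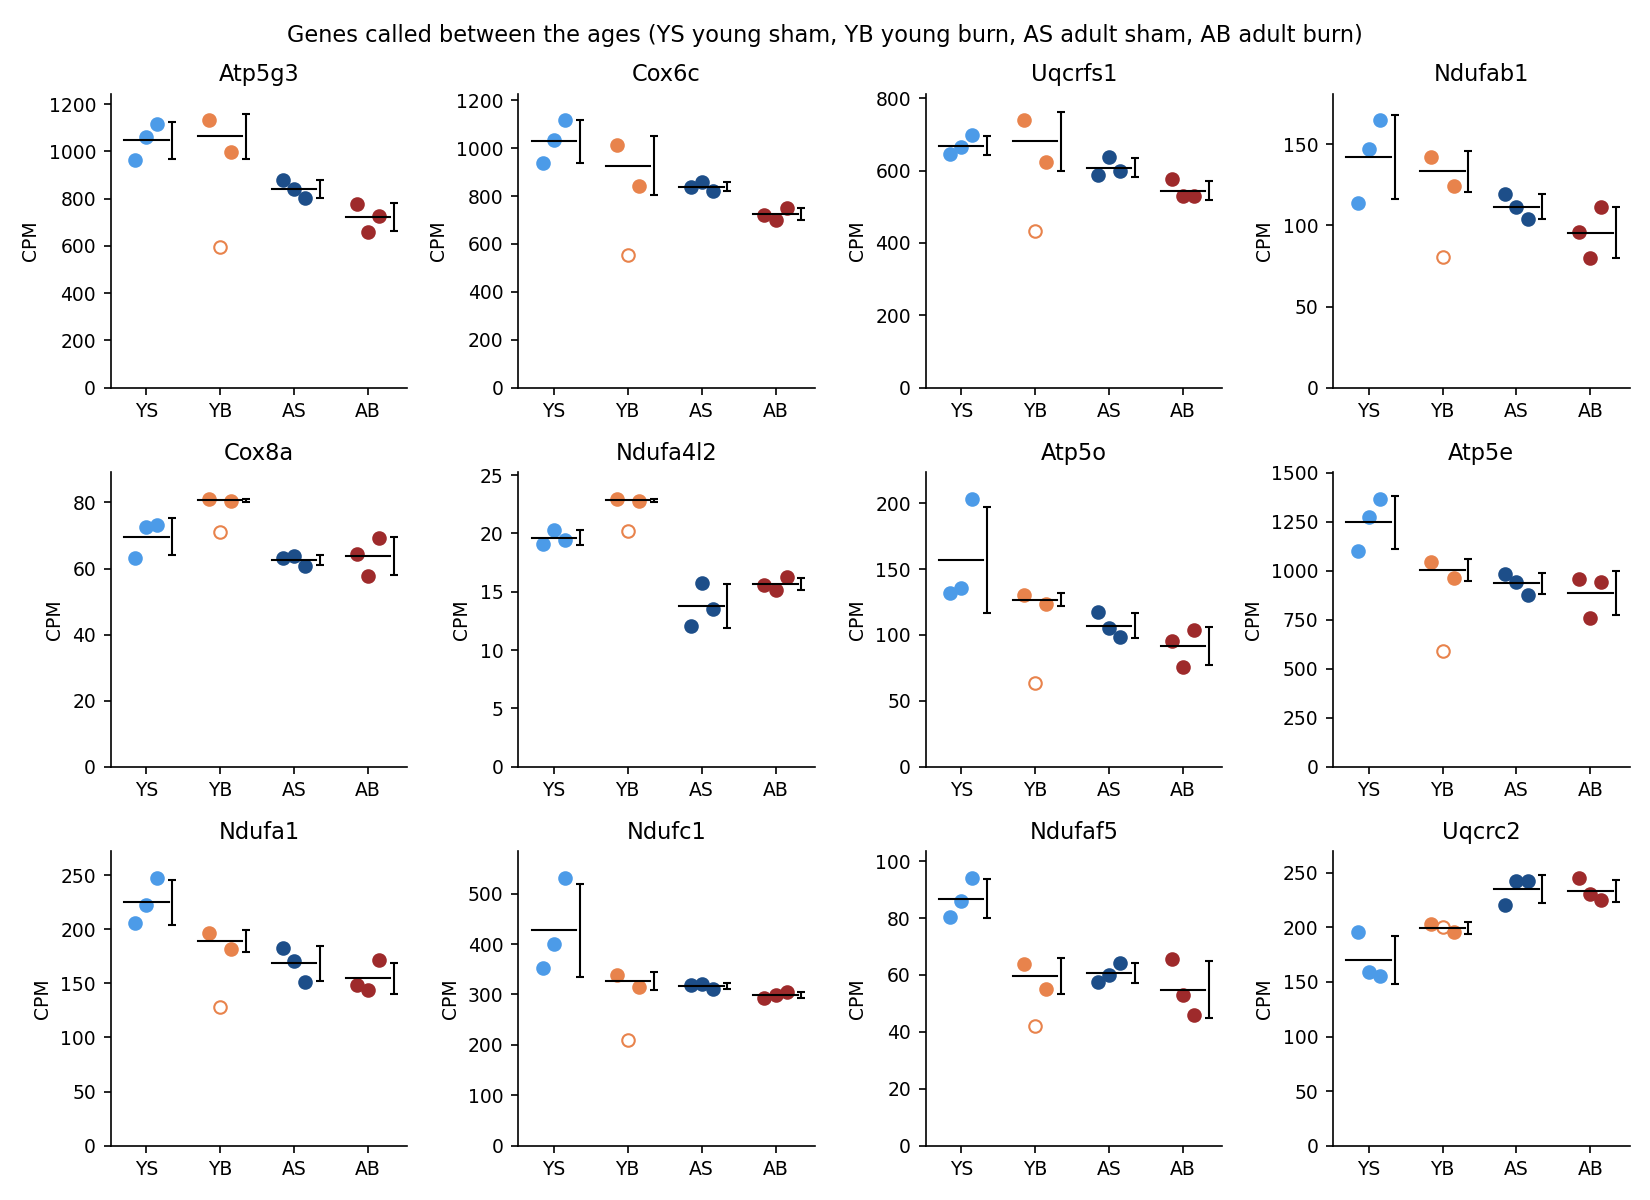
CPM of the 12 members called between the ages, in each library, by group (YS young sham, YB young burn, AS adult sham, AB adult burn). Filled points are the 11 libraries compared, the open circle is young burn replicate 2, lines are means and bars SDs of the filled points. Atp5g3 stands at 996 to 1132 CPM in young burn and 659 to 779 CPM in adult burn mice, and Uqcrc2 is the gene with lower levels in young mice.

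The promoters of the nuclear members were searched for sequences that factors of mitochondrial gene regulation are known to bind. RefSeq promoters (GRCm38.p6, 250 bases before to 50 after the start) were found for 73 of the 91 nuclear members with a count. The NRF1 core GCNNGCGC, on either strand, occurred in 40 of the 73 (54.8%), where 23.6% of all 27025 promoters held it. The ETS core CCGGAA, which the factor Gabpa recognises, occurred in 27 (37%, against 15.2%). The full ERR sequence TCAAGGTCA, which Esrra and Esrrg bind, occurred in 2 (2.74%, against 0.407%), namely Atp5g3 and Sdhd. A match of letters describes the sequence and is no evidence of binding. The NRF1 and ETS cores are rich in G and C. The promoters set beside the members were not matched for base composition or expression, so the part of these in the higher shares was not tested. Because Atp5g3 had the smallest adjusted p of the members between young burn and adult burn mice, the 150 bases before its start are printed, on its own minus strand (chr2:73911327-73911476), with the ERR sequence, which here reads in reverse complement from base -52, in capitals.
Atp5g3: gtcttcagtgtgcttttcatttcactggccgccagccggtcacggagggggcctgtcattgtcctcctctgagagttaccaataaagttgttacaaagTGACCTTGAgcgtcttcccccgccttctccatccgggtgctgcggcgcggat

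Between the burned groups, calls among regulators and assembly factors were all negative, opposite to those of the members. Calls among carriers and coenzyme Q genes had both signs. For comparison, the shares over all genes were 9.54% lower and 11.2% higher. Of 20 regulators tested, 0 were higher and 5 lower in young burn than in adult burn mice. They were Tfam, which packs and transcribes mitochondrial DNA, Polrmt, the mitochondrial RNA polymerase, Tfb2m, its partner, Yy1, and Lrpprc, which stabilises mitochondrial mRNAs. Of these, Polrmt alone was also called with all 12 libraries. Polrmt was at 21.9 and 21.6 CPM in young burn and 29.6, 36.0 and 32.1 CPM in adult burn mice (-0.58, edgeR adjusted p = 0.00966), with 23.3 CPM in the left-out library. Tfam was at 46.2 and 48.1 against 55.2, 70.2 and 66.4 CPM (-0.44, edgeR adjusted p = 0.0220), with 61.0 CPM in the left-out library, and was not called with all 12 (edgeR adjusted p = 0.145). Of 50 assembly factors tested, 3 were lower (Cox11, Tmem186 and Atpaf1) and 0 higher, with a median of -0.11. Of the carriers, Ckmt2 was higher by 0.74 (edgeR adjusted p = 0.00144), at 1494 and 1258 CPM against 903, 710.1 and 858 CPM. The left-out library, at 673 CPM, lay below every adult burn library, and Ckmt2 was not called with all 12 (0.46, edgeR adjusted p = 0.191). Another carrier gene, Ucp2, an uncoupling protein also common in immune cells, was higher by 0.77 (edgeR adjusted p = 0.00492), while Vdac2, a channel of the outer membrane, was lower (-0.36). Idh2 of the citric acid cycle was higher (0.58), and of the coenzyme Q genes Coq7 was higher and Coq2 and Coq3 were lower. With all 12 libraries Idh2 (edgeR adjusted p = 0.548), Coq7 (0.456) and Tmem186 (0.184) were not called.

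Between the sham groups, 5.27% of all genes were called higher and 6.50% lower in young mice. Of the 20 regulators tested, 0 were higher and 4 lower: Esrrg (-0.84), Perm1 (-0.75), Lrpprc (-0.55) and Esrra (-0.42). Lrpprc, at 46.4, 43.2 and 45.6 CPM in young sham and 63.1, 66.0 and 68.5 CPM in adult sham mice, was also called with all 12 libraries (edgeR adjusted p = 0.0142). Of the assembly factors, 4 were lower, namely Taco1 (-1.24), Acad9 (-0.80), Atpaf1 (-0.74) and Timmdc1 (-0.37), and 1 was higher (Ndufaf5). Of 11 coenzyme Q genes, 3 were lower (Coq8a, Coq3 and Coq9). With all 12 libraries Taco1, Acad9 and Atpaf1 were also called. Esrrg (edgeR adjusted p = 0.159), Perm1 (0.296), Esrra (0.444), Timmdc1 (0.251), Ndufaf5 (0.0889), Coq8a (0.139), Coq3 (0.115) and Coq9 (0.142) were not. The median was 0.17 for nuclear subunits, -0.27 for the 20 regulators and -0.01 for the 50 assembly factors.

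Cell type markers differed between the burned groups as well. Of the slow and oxidative fibre markers, 6 of 11 were called higher in young burn mice, at 2987 to 3231 CPM in sum against 1362 to 1833 CPM, with 1257 CPM in the left-out library. Of the macrophage markers 5 of 8 were higher (368 to 591 against 260.1 to 337 CPM), and of the endothelial markers 5 of 6 (433 to 528 against 298 to 317 CPM). No marker of these lists was at 0. With all 12 libraries these counts were 2, 5 and 3. Of the Schwann cell markers 3 of 5 were higher (199 to 341 against 117 to 162 CPM, 141 CPM in the left-out library), and none with all 12. Of the fibroblast and tendon markers 2 of 7 were (Col1a1 and Col3a1), with sums of 3475 to 4676 against 762 to 1240.1 CPM. Among the skeletal muscle markers Myh1 and Mylpf were higher and Ckm lower. Their part in the member levels was not tested.

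The interaction asked whether the burn effect differed with age. No member was called, where 0.0949% of all genes were, and DESeq2, which called 0.409% of genes, called none. At an unadjusted p under 0.05, 2 members had a more negative burn effect in young mice, Ndufb4 (-0.47 ± 0.21, edgeR adjusted p = 0.431) and Ndufa3 (-0.34 ± 0.15, edgeR adjusted p = 0.420), and 0 a more positive one. Of all genes, 4.58% had a more negative effect and 829 of 12651 a more positive one. The median was -0.02 for nuclear subunits and -0.04 for mitochondrially encoded genes, beside 0.01 for all genes. For mt-Co1 the burn effects were -0.33 in adult and -0.26 in young mice, and their difference was 0.06 ± 0.25. The standard error of that difference was nearly as large as either burn effect, so a difference of that size between the ages was not detectable in this gene with 2 or 3 mice per group. Among the slow and oxidative fibre markers, 2 of 11 had a called interaction (Myh2 and Casq2), both with a more positive burn effect in young mice. The skeletal muscle marker Myh1 had one of the same sign (1.72, edgeR adjusted p = 0.00638). None of these was called with all 12 libraries (edgeR adjusted p = 0.683 for each), where no gene was. Subunit genes of up to 999, 1000 to 1999 and 2000 or more exon bases had interaction medians of -0.10, -0.04 and 0.13, beside -0.13, -0.06 and 0.03 for other protein-coding genes. The part of length was not tested.

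Isoform shares described which tissue forms these muscles used. Levels per exon length were compared within each set of alternatives, as a description. The muscle forms dominated throughout. Cox8a made up 4.73% to 5.75% of Cox8a and Cox8b together in young sham, adult sham and adult burn libraries. In young burn libraries it made up 6.68% and 7.22%, and 10.6% in the left-out one, so that all 3 young burn mice lay above all other mice. Cox6a1, the ubiquitous partner of Cox6a2, showed the same order, with 4.85% to 6.73% elsewhere and 6.89% and 7.16% in young burn libraries, and 10.2% in the left-out one. Cox7a2 made up 31.7% to 33.7% of Cox7a1 and Cox7a2 in adult sham, 29.3% to 30.6% in adult burn, 28.5% to 30.2% in young sham, and 29.2% and 31.4% in young burn libraries, with 33.2% in the left-out one, within the adult sham range. Adult sham shares overlapped with neither adult burn nor young sham shares.

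The c subunit of the ATP synthase is encoded by Atp5g1, Atp5g2 and Atp5g3, whose proteins differ in the part removed on import. Atp5g3 made up 67.9% to 70.2% of the set in adult burn, 70.4% to 75.1% in adult sham, 74.4% to 77.6% in young sham, and 75.1% and 77.5% in young burn libraries, with 71.1% in the left-out one. Adult burn had the lowest shares, just without overlap with adult sham. Atp5g2 made up 7.67% to 8.52% in adult burn, 5.92% to 7.04% in adult sham and 3.76% to 5.44% in young sham libraries, and these 3 groups did not overlap. In young burn libraries it made up 4.40% and 5.46%, with 7.05% in the left-out one, so that the young burn mice ranged from young sham to adult sham values. Of the Atp5g1 windows, 24.0% occur elsewhere in the genome, which bears on its level. The size of each share also depends on the exon length used, which takes in all annotated transcripts. The longest coding transcript has 4715 bases in Atp5g1, 753 in Atp5g2 and 723 in Atp5g3. Cox4i1 made up 97.2% to 99.1% of Cox4i1 and Cox4i2, and Cox6b1 made up at least 99.7% of Cox6b1 and Cox6b2 in all 12 libraries. Cox4i2, the form tied to low oxygen in other tissues, was at 7.17, 6.52 and 9.02 CPM in young sham and 5.51, 4.22 and 3.96 CPM in adult sham mice, a difference that was not called (0.72 ± 0.27, edgeR adjusted p = 0.0917).

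**Figure D5:**
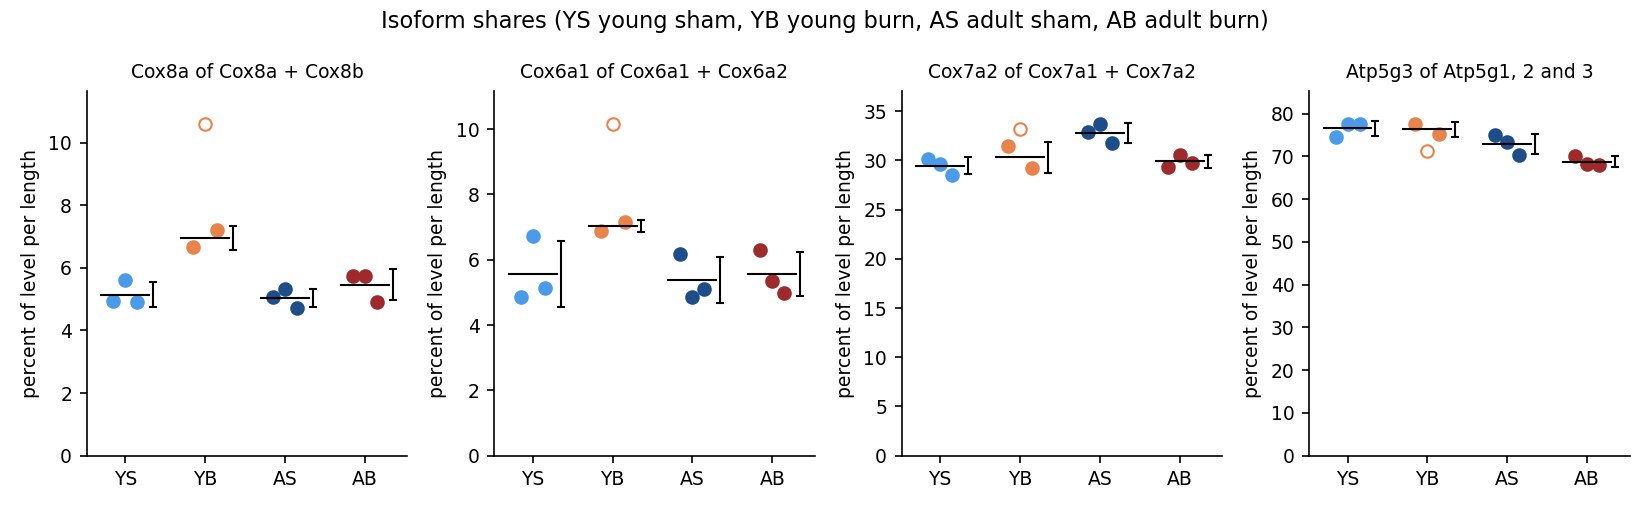
Share of 1 isoform in its set, from levels per exon length, in each library and group (YS young sham, YB young burn, AS adult sham, AB adult burn). Filled points are the 11 libraries compared, the open circle is young burn replicate 2, lines are means and bars SDs of the filled points. Cox8a lies at 6.68% to 10.6% in the 3 young burn libraries and at 4.73% to 5.75% in all others.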

How the data were processed

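Polyadenylated RNA of 12 mouse muscle samples was sequenced after NEBNext Ultra II library preparation. The deposited table holds raw counts per gene, which the authors made by base calling with bcl2fastq 2.20 and alignment to GRCm38 with STAR 2.7.5c, counting against Gencode M25. Sources used here do not state which strand was counted. The microRNA counts of the same mice, which per the labels name featureCounts 2.0.1, were not used. Symbols, positions and biotypes came from Gencode M21, which lacked 260 genes of the table.

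The 11 libraries without young burn replicate 2 were fitted with edgeR 4.0.16 (R 4.3.3, limma 3.58.1) by its quasi-likelihood test, with a mean for each of the 4 groups and TMM scaling. Low counts were filtered by filterByExpr (minimum count 10, total 15). Tests were two-sided, adjusted by Benjamini-Hochberg over 12651 genes and called at an adjusted p under 0.05. CPM were computed on TMM-scaled library sizes, and those of young burn replicate 2 with the scaling of 12 libraries. Total counts per library limit precision, and 2 or 3 mice per group limit it further. A p that misses the threshold does not show that groups did not differ. Fold changes are ± SE.

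Named genes were the members called, up to 12 per direction, the mitochondrially encoded genes, the 2 nuclear genes of each complex highest per length, and isoform sets. Genes with an unadjusted p under 0.05 were named in addition after their values were seen. Members and lists were chosen with earlier results of these data known. Scripts were tested on simulated counts. Alternatives were all 12 libraries, DESeq2 1.42.0 (which the study used), other scalings, no filter, the compared groups alone, a replicate block and each library left out. Shared 75-base windows were searched on both strands of the RefSeq GRCm38.p6 genome. Replicate numbers gave no pairing of mice: libraries with the same number in different groups had correlations of their deviations from the group means from -0.170 to 0.130.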

Additional observations from a re-analysis of the deposited data

How the results depend on the processing

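The counts of called members moved with the libraries, the tool, the scaling and the filter. Between young sham and adult sham, 7 members were called, against 1 with all 12 libraries, 14 with DESeq2 and 3 on library size alone. Leaving out 1 library at a time gave 0 to 19. Of the 7, 6 were higher and 1 lower, and of the 14 with DESeq2, 13 were higher and 1 lower. With all 12 libraries (Uqcrc2) and on library size alone (Ndufa9, Ndufv1 and Uqcrc2), 0 were higher and every call was lower. Between adult burn and adult sham mice the count of 0 became 4 without the filter on low counts, where calls among all genes went from 115 to 562. Between young burn and young sham mice it became 2 with DESeq2 and 8 without the filter, where calls among all genes went from 84 to 191 and 593, and leaving out 1 library gave 0 to 1. Between young burn and adult burn mice 6 became 1 with all 12 libraries and 2 with the replicate block, and leaving out 1 library gave 1 to 9. The interaction gave 0 calls in every setting run. The cause of these differences was not tested.

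The replicate block, a term for the replicate number of the titles, left 5 calls between the sham groups and changed no other count beyond those given. Correlations of same-numbered libraries had a median of -0.0539 over 15 pairs, against 0.0160 over 30 pairs of different numbers, so the samples share only a number. No called member changed direction in any setting run, whereas some medians changed sign, as the report gives for all 12 libraries, library size alone and single libraries left out. A median over the 7 abundant mitochondrial genes alone, chosen after seeing the data, gave 0.25, -0.33, -0.47 and 0.15 in the 4 comparisons in the order of the report, and -0.05 for the interaction. Levels of mt-Atp8, mt-Nd4l and mt-Nd3 are limited by their few counts.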
